A study of Medicago truncatula with 15 samples.

Results

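Gene expression in wild-type (WT) leaves was set against that in WT shoot apices of *Medicago truncatula*, a legume, in 6 RNA-seq libraries, 3 of each tissue, chosen by their tissue and genotype labels out of 15 libraries in all. The plants were of the R108 ecotype and 15 days old. Their germinated seed had been kept at 4 °C for 3 weeks (vernalized) and then grown at 22 °C with 16 h of light a day, a regime that promotes flowering, and tissue was taken 4 h after dawn. Each leaf library came from a pool of 2 fully grown trifoliate leaves from 2 plants, and each apex library from the top of the primary stem of 3 plants pooled, which holds young stem and leaf tissue besides the meristem. The labels do not say whether leaf and apex pools came from the same plants, and p-values measure the spread between pools. The same contrast was read a second time in 3 leaf and 3 apex libraries of *Mtsoc1a* plants of that age and treatment, which carry a *Tnt1* retrotransposon insertion in *MtSOC1a*. The 3 remaining libraries, apices of a triple *Mtsoc1* mutant, were older and entered no test here.

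In plants that respond to day length, leaves measure the light period and make the mobile protein FT, which travels through the phloem to the shoot apex and there acts with the bZIP factor FD to switch on floral genes. In Arabidopsis these include the MADS-box factors SOC1, FRUITFULL (FUL) and APETALA1 (AP1), and the factor LEAFY (LFY). TERMINAL FLOWER 1 (TFL1), a relative of FT, opposes it at the apex. Medicago flowers earlier after cold and in long days, and its *FTa* and *FTb* genes carry these signals, *FTb* genes being known as leaf-expressed long-day genes.

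The leaf and apex transcriptomes were far apart. Of 50021 loci, 21935 had enough counts to be tested, and 5033 of them (22.9%) were higher in leaves and 6243 (28.5%) lower in leaves than in apices, where a called locus has an adjusted p of at most 0.05 and at least a 2-fold difference. These percentages are the background against which the counts of each gene group below are to be read. The median log2 fold change (leaf over apex) of all tested loci was -0.12, and the CPM values of the 3 leaf and 3 apex libraries did not overlap for 75.7% of tested loci. Differences of 16-fold or more were found for 801 loci higher and 1508 lower in leaves, and 40 loci called higher had no count in any apex library, against 366 called lower with no count in any leaf library.

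Library totals were 31134743 to 38896407 counts in leaves and 31302332 to 37266298 in apices, and these ranges overlapped. They differed in how counts were spread: the 100 most counted loci took 40.8 to 43.1% of the counts in leaves and 13.4 to 14.6% in apices, and 19452 to 19846 loci reached 10 counts in leaves, against 21830 to 22200 in apices. Values below are counts per 1000000 (CPM) after TMM scaling, which allows for this difference in composition (factors 0.661 to 0.719 in leaves and 1.44 to 1.46 in apices). Scaling moved the balance of the calls. With library totals alone the median log2 fold change shifted by -1.06 and 2669 loci were higher and 11797 lower in leaves, with upper-quartile scaling by -0.16 (4548 and 6849), and with scaling to the qPCR reference gene *MtPP2A* by 0.44 (6737 and 4794). *MtPP2A* (Medtr6g084690) itself had 121, 122 and 109.8 CPM in leaves, against 170.4, 149 and 161 CPM in apices (log2 fold change -0.45 ± 0.12, SE as for all fold changes here). Log2 values between libraries of a tissue correlated at 0.985 to 0.988 in leaves and 0.98 to 0.991 in apices, apex replicate 2 being the farthest from its fellows in counts. In such bulk samples fewer cells of a type and less RNA per cell cannot be told apart.

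Marker levels were set beside the tissue labels. Of 24 photosynthesis genes, a list chosen as higher in the triple mutant than in these WT apices, so that their low apex level is in part fixed by the choice, 23 were tested and 20 were higher in leaves, none lower, and their summed level was 4278 to 4971 CPM in leaves, against 223 to 373 CPM in apices. Of 8 genes taken as shoot apex markers, 6 were at 0 counts in every leaf library and none was at 0 in an apex library, and 5 of the 6 tested were lower in leaves, with *MtSOC1a* short of 2-fold. Their summed level was 9.65 to 12.6 CPM in leaves, most of it *MtSOC1a*, against 32.0 to 43.9 CPM in apices. A list of 11 floral organ genes was taken as markers of floral tissue that the apex could hold. Its sum was higher in leaves, at 49.1 to 62.5 CPM, against 2.79 to 7.73 CPM in apices. These genes are described singly further on.

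The study's list of candidate flowering genes holds 93 loci, of which 87 were tested. In leaves 24 were higher and 36 lower, the median log2 fold change being -0.37, against -0.12 for all loci. By category, photoperiod genes leaned to the leaf (8 higher and 2 lower of 14, median 1.35), while age genes (1 and 7 of 10, median -3.28), vernalization genes (0 and 5 of 8, median -2.55) and gibberellin genes (4 and 8 of 17, median -0.72) leaned to the apex. Of the 8 gibberellin genes lower in leaves, 5 were loci listed as GRP, described further on. MADS-box and meristem genes were divided (9 and 12 of 30, median -0.33), as were carbohydrate genes (2 and 2 of 8, median -0.31). Of 21 genes on the RT-qPCR list, 17 were tested, 3 higher and 7 lower in leaves (median -0.37), and the 3 became 6 without apex replicate 2. Salmon divides reads among similar transcripts, so values of close paralogs, such as the neighbouring *MtFTa* or *MtFTb* genes, are less certain than those of single genes.

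**Figure D1:**
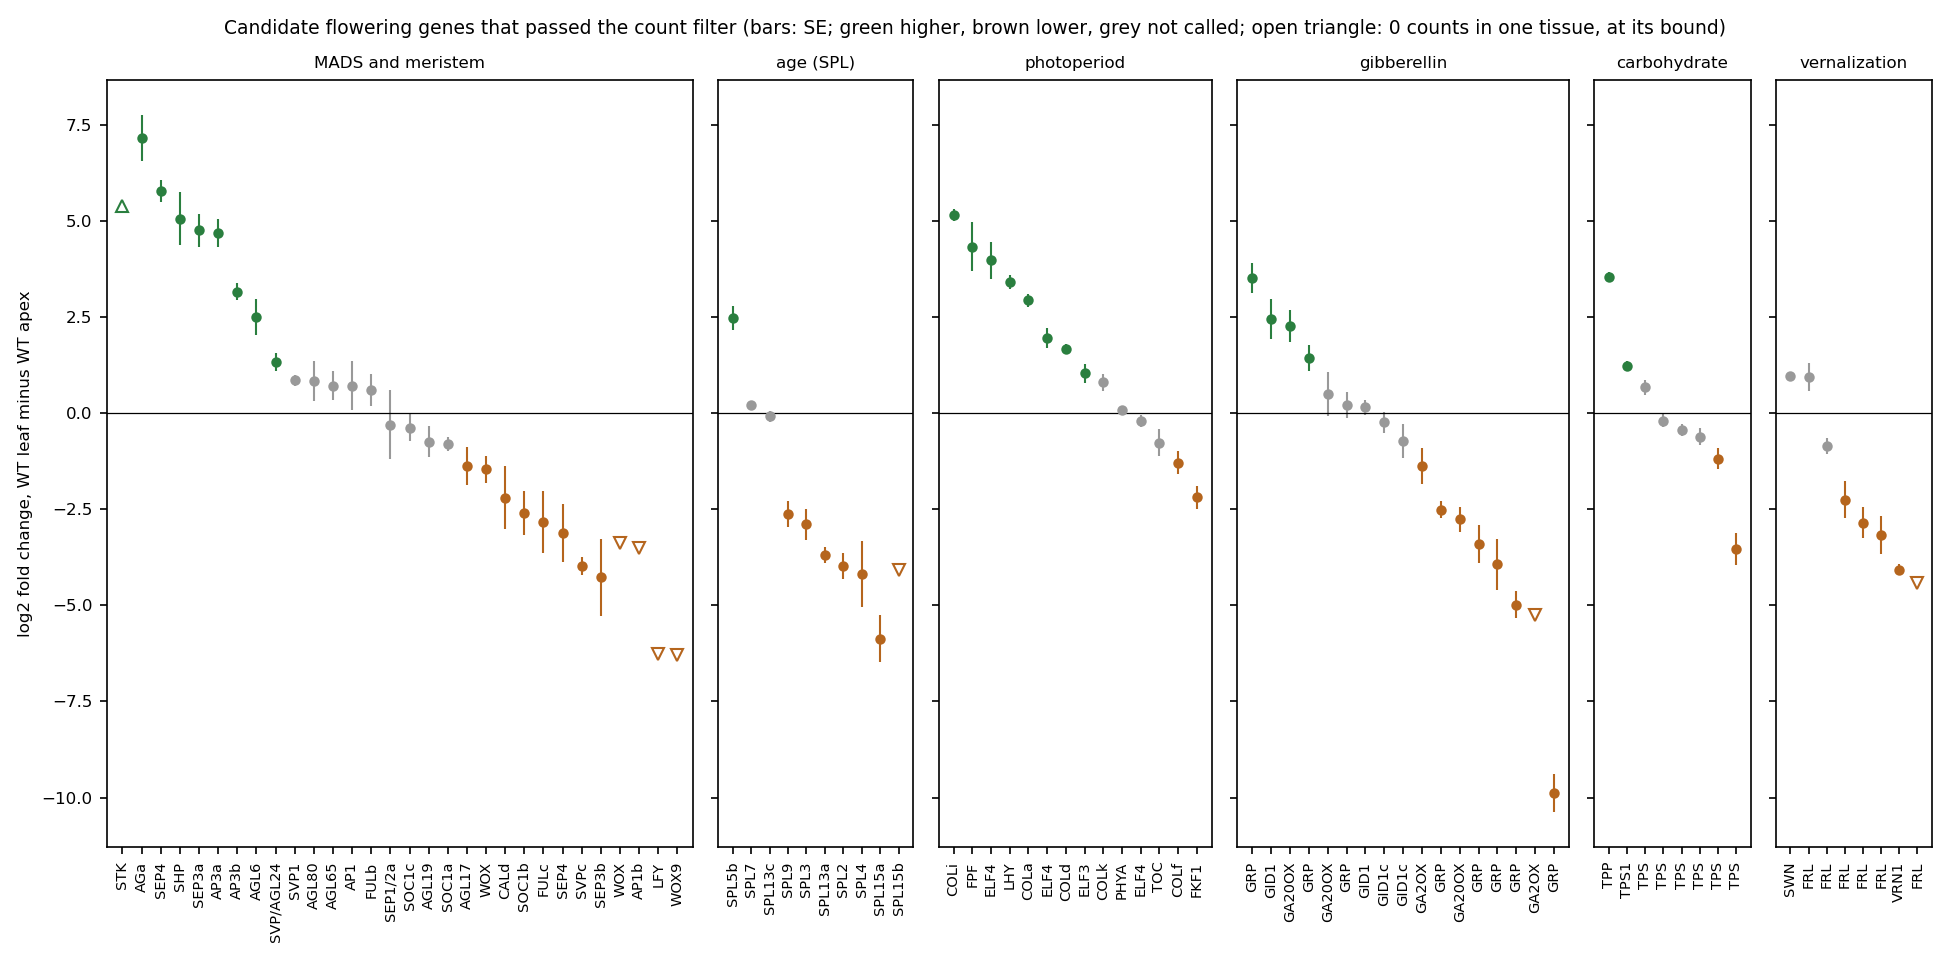
Log2 fold change, WT leaf over WT shoot apex, of the candidate flowering genes, grouped by category. Points are edgeR estimates with bars of 1 SE (green higher, brown lower in leaf, grey not called), and open triangles stand at the bound for genes with no count in a tissue. Photoperiod genes such as *MtCOLi* (5.16) and *MtLHY* (3.42) lie above 0, and age genes such as *MtSPL15a* (-5.87) below.

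Genes of the florigen system were split between the tissues, the *FTb* genes in the leaf and *TFL1* and *FD* at the apex. *MtFTb1* (Medtr7g006630) had 1.22, 3.28 and 1.34 CPM in leaves, against 0.129, 0.165 and 0.267 CPM in apices. All 3 leaf libraries stood above all 3 apex libraries, leaf replicate 2 highest (log2 fold change 3.37 ± 0.57, adjusted p = 0.000647). *MtFTb2* (Medtr7g006690), its neighbour, had 1.77, 5.28 and 1.38 CPM in leaves, against 0.258, 0.103 and 0.0667 CPM in apices, again without overlap (log2 fold change 4.23 ± 0.71, adjusted p = 0.000636). Without leaf replicate 2 the log2 fold changes were 2.77 for *MtFTb1* and 3.42 for *MtFTb2*, both still called, and without apex replicate 1 that of *MtFTb2* was 5.01. *MtFTa1* (Medtr7g084970), which in Medicago mediates the response to cold, had 1.11, 0.665 and 2.14 CPM in leaves, against 0.442, 0.970 and 0.200 CPM in apices. The groups overlapped, apex replicate 2 lying within the leaf range, and the gene was not called (log2 fold change 1.27 ± 0.65, adjusted p = 0.11), although without that library it was 2.03 (adjusted p = 0.0287). *MtFTa2* (Medtr7g085020, 5, 1 and 12 counts in leaves, against 2, 19 and 4 counts in apices) and *MtFTc* (Medtr7g085040, 0 counts in all 3 leaf libraries, against 12, 9 and 0 counts in apices) had too few counts to be tested.

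*MtTFL1c* (Medtr1g060190), a homolog of the floral repressor TFL1, had 0 counts in all 3 leaf libraries, against 165, 420 and 219 counts in apices, which set it at least 130.7-fold lower in leaves (adjusted p = 9.41e-05). For this and the other bounds, 3 counts over the tissue's libraries stood in for 0. *MtFDa* (Medtr5g022780), a homolog of the partner of FT, had 0 counts in all 3 leaf libraries, against 100, 139 and 109 counts in apices, at least 56.58-fold lower (adjusted p = 6.04e-05). Neither gene gave a single read in a leaf library, whereas every apex library gave 100 or more. *MtTFL1a* (Medtr7g104460) had 0 counts in all 3 leaf libraries, against 2, 1 and 5 counts in apices, and *MtBFT* (Medtr0020s0120), named for another FT relative, 3, 5 and 0 counts in leaves, against 4, 24 and 17 counts in apices. Both were too low to test.

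*MtLFY* and the WOX genes tested were lower in leaves. *MtLFY* (Medtr3g098560), the homolog of LFY, had 0 counts in all 3 leaf libraries, against 207, 132 and 135 counts in apices, at least 77.07-fold lower in leaves (adjusted p = 2.82e-05). The homeobox gene *MtWOX9* (Medtr2g015000) had 0 counts in all 3 leaf libraries, against 120, 200 and 160 counts in apices (at least 78.05-fold lower, adjusted p = 4.79e-05). Of the other WOX genes, Medtr4g084550 was at least 10.41-fold lower, with no read in leaves, and Medtr1g019130 lay at 4.50, 2.48 and 1.56 CPM in leaves, against 8.09, 7.37 and 8.02 CPM in apices (log2 fold change -1.45 ± 0.35, adjusted p = 0.00467). These genes separated the tissues completely, with no leaf library reaching the lowest apex library. *MtHDL* (Medtr5g021930, *HEADLESS*), the Medicago homolog of WUSCHEL, which maintains stem cells in Arabidopsis, had 0 counts in all 3 leaf libraries, against 4, 14 and 7 counts in apices and was too low to test.

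Of the AP1 and FUL relatives, which act downstream of FT in Arabidopsis, those called were lower in leaves, and the others were not called. *MtAP1* (Medtr8g066260) had 2.88, 2.84 and 4.02 CPM in leaves, against 2.45, 0.351 and 3.11 CPM in apices, and *MtFULa* (Medtr2g461760) 1.22, 0.621 and 1.70 CPM in leaves, against 0.166, 1.32 and 0.400 CPM in apices. For both, apex replicate 2 stood apart from its fellows, low for *MtAP1* and high for *MtFULa*, and the tissues overlapped. Neither was called (log2 fold changes 0.72 ± 0.64 and 0.91 ± 0.73, adjusted p = 0.347 and 0.293). Without apex replicate 2, *MtFULa* was at 2.09 (adjusted p = 0.0261). *MtFULb* (Medtr4g109830) was not called either, at 5.16, 2.13 and 4.02 CPM in leaves, against 3.46, 1.40 and 2.62 CPM in apices (log2 fold change 0.60 ± 0.42, adjusted p = 0.23). *MtFULc* (Medtr7g016630) was lower in leaves, with 3, 5 and 0 counts in leaves, against 47, 21 and 51 counts in apices (log2 fold change -2.83 ± 0.80, adjusted p = 0.0112), a call lost without apex replicate 3 (-2.47, adjusted p = 0.0508) and moved to -3.70 without leaf replicate 2. *MtAP1b* (Medtr5g046790) had 0 counts in all 3 leaf libraries, against 28, 13 and 29 counts in apices, at least 11.38-fold lower (adjusted p = 0.0023). *MtCALd* (Medtr6g464720) had 0.0737, 0.177 and 0 CPM in leaves, against 0.387, 0.268 and 0.533 CPM in apices (log2 fold change -2.20 ± 0.82, adjusted p = 0.0377). Its call was lost without leaf replicate 1 (adjusted p = 0.109), leaf replicate 3 (0.0834), apex replicate 1 (0.09) or apex replicate 3 (0.126), and without leaf replicate 2 its log2 fold change was -3.21.

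Genes whose Arabidopsis counterparts specify floral organs were, for the greater part, higher in leaves than in apices. Of the 11 listed, 9 were tested, 6 higher and 1 lower in leaves, with a median log2 fold change of 4.70, against -0.12 for all loci. *MtAGa* (Medtr2g017865), a homolog of AGAMOUS, which specifies stamens and carpels, had 13.3, 10.7 and 12.0 CPM in leaves, against 0.184, 0 and 0.0444 CPM in apices (log2 fold change 7.17 ± 0.60, adjusted p = 1.03e-05). Leaf libraries lay close together and apex libraries near 0, and without apex replicate 1 the log2 fold change was 8.93. *MtSEP4* (Medtr4g109810), a SEPALLATA relative outside the list of 11, had 23.9, 19.95 and 20.5 CPM in leaves, against 0.516, 0.227 and 0.400 CPM in apices (log2 fold change 5.79 ± 0.28, adjusted p = 2.57e-07). *MtSEP3a* (Medtr3g084980) had 12.2, 5.23 and 13.7 CPM in leaves, against 0.369, 0.330 and 0.444 CPM in apices (log2 fold change 4.76 ± 0.42, adjusted p = 8.86e-06). In each of these 3 genes the lowest leaf library was more than 10 times the highest apex library.

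The petal and stamen genes *MtAP3a* (Medtr3g113030) and *MtAP3b* (Medtr5g021270) had log2 fold changes of 4.70 ± 0.36 and 3.17 ± 0.22. *MtAP3b* lay at 15.3, 20.8 and 19.1 CPM in leaves, against 2.06, 1.61 and 2.44 CPM in apices, without overlap. The carpel and ovule genes were low but separated: *MtSTK* (Medtr3g005530) had 17, 19 and 26 counts in leaves, against 0 counts in all 3 apex libraries (at least 42.37-fold higher, adjusted p = 0.000277), and *MtSHP* (Medtr3g452380) 1.59, 1.24 and 1.61 CPM in leaves, against 0.0553, 0 and 0.0667 CPM in apices (log2 fold change 5.07 ± 0.70, adjusted p = 0.00017). *MtAGL6* (Medtr7g075850) was also higher in leaves (log2 fold change 2.51 ± 0.47, adjusted p = 0.00119). Other members lay at the apex. *MtSEP3b* (Medtr8g097090) had 0, 1 and 0 counts in leaves, against 21, 11 and 17 counts in apices, a ratio of 23.9 in favour of the apex (95% interval 4.09 to 963, counting error only), and the second *SEP4* locus, Medtr5g046830, had 0.0737, 0.0887 and 0 CPM in leaves, against 0.498, 0.413 and 0.600 CPM in apices (log2 fold change -3.11 ± 0.75, adjusted p = 0.00503). Without leaf replicate 2, which holds the single leaf read of *MtSEP3b*, its call stood (adjusted p = 0.00781). *MtPI* (Medtr3g088615), the partner of AP3 proteins, had 1, 0 and 0 counts in leaves, against 31, 0 and 6 counts in apices, and *MtSEP1/2a* (Medtr6g015975) 0.332, 0.222 and 0.491 CPM in leaves, against 0.682, 0.0206 and 0.578 CPM in apices (log2 fold change -0.30 ± 0.90, adjusted p = 0.783). Neither separated the tissues. *MtSEP1/2b* (Medtr7g016600) and a second *AGL6* locus, Medtr8g033270, had too few counts to be tested. Scaled over 12 libraries, *MtSEP1/2b* had 0.111, 0.351 and 0.185 CPM in WT leaves, against 0.237, 0 and 0.246 CPM in WT apices. Medtr8g033270 had 0 CPM in all 3 WT leaf libraries, against 0.273, 0 and 0 CPM in WT apices.

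Most of the genes higher in WT leaves were also higher in leaves in the *Mtsoc1a* libraries, which the WT contrast did not use. The sum of the 11 genes there was 51.4 to 57.6 CPM in leaves, against 5.15 to 6.26 CPM in apices, scaled over the *Mtsoc1a* libraries alone. The log2 fold changes in *Mtsoc1a* were 8.09 for *MtAGa*, 6.11 for *MtSEP4*, 5.31 for *MtSEP3a*, 4.2 for *MtAP3a*, 2.49 for *MtAP3b* and 3.32 for *MtSHP*, all called, while that of *MtAGL6* (1.03, adjusted p = 0.189) was not. *MtSTK*, too low to test there, had 16, 36 and 6 counts in *Mtsoc1a* leaves, against 0 counts in all 3 *Mtsoc1a* apex libraries. Of the genes lower in WT leaves, *MtSEP3b* was lower in *Mtsoc1a* as well, with 0 counts in all 3 *Mtsoc1a* leaf libraries, against 36, 10 and 11 counts in *Mtsoc1a* apices (adjusted p = 0.0121), whereas *SEP4* Medtr5g046830, also too low to test, overlapped, with 2, 0 and 0 counts in *Mtsoc1a* leaves, against 0, 7 and 19 counts in *Mtsoc1a* apices. Whether a trace of floral tissue in the leaf pools, or reads shared among MADS-box paralogs, had a part in these values was not tested.

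**Figure D2:**
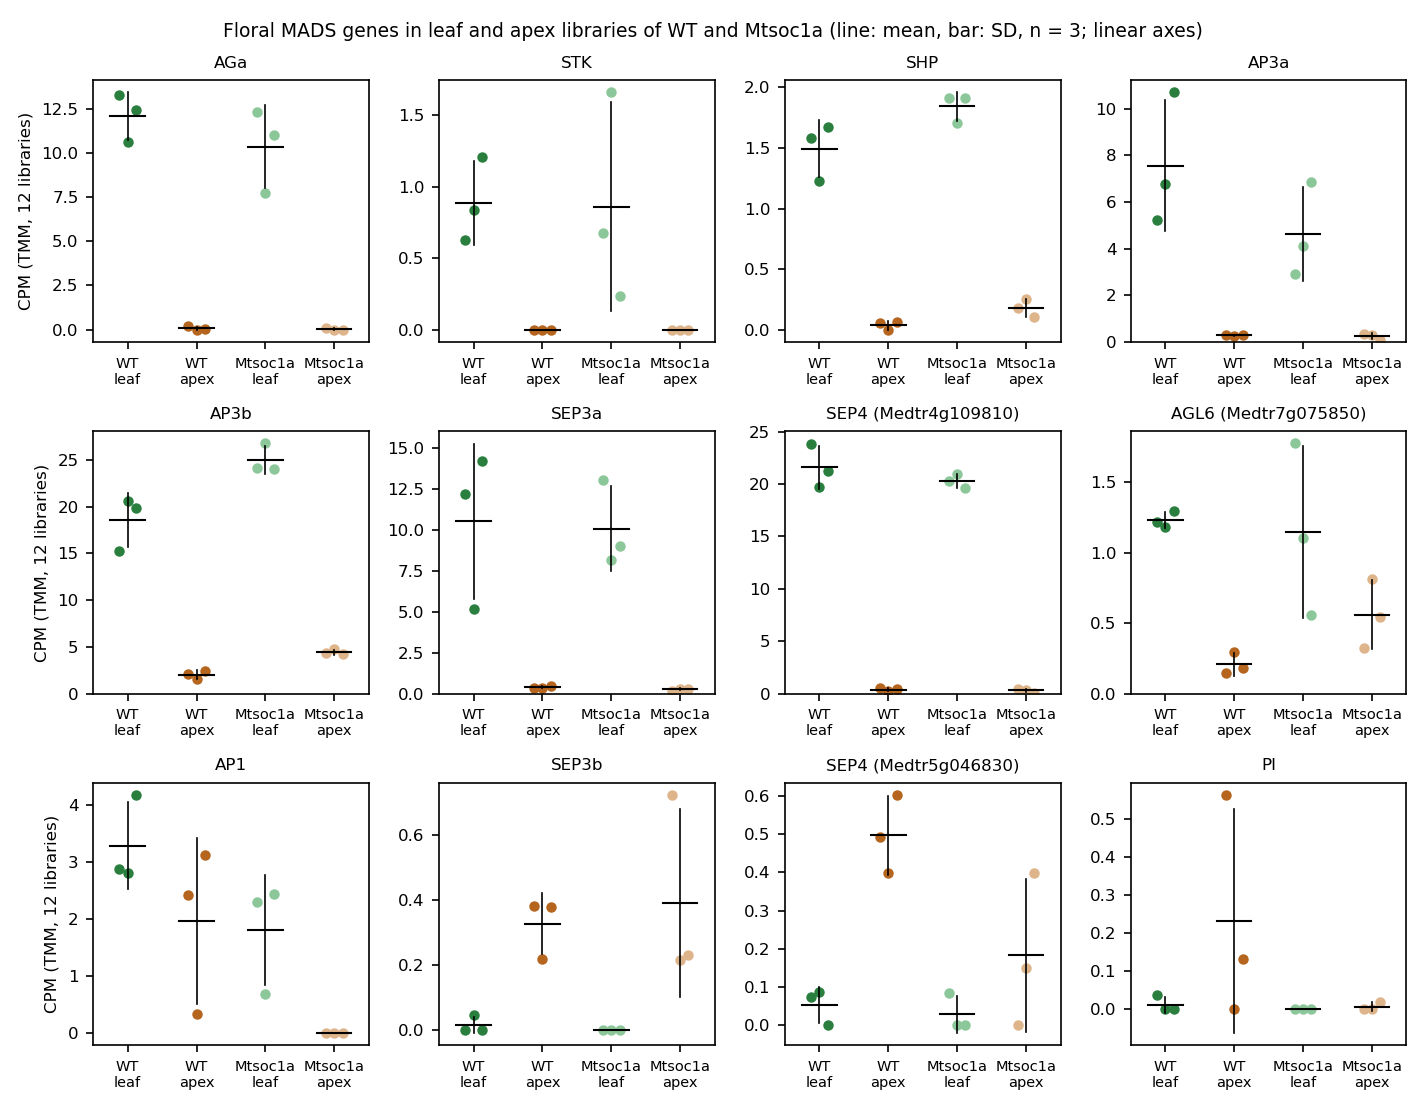
CPM (TMM scaling of 12 libraries, linear axes) of 12 floral MADS-box genes in WT leaf, WT apex, *Mtsoc1a* leaf and *Mtsoc1a* apex; each point is a library, with the mean (line) and SD (bar, n = 3). *MtAGa*, *MtSEP3a* and *MtSEP4* (Medtr4g109810) are high in leaves of both genotypes and near 0 in apices, and *MtAP1* is at 0 in *Mtsoc1a* apices only.

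SOC1, SVP and their relatives integrate flowering signals as MADS-box factors, SOC1 as an activator and SVP as a repressor in Arabidopsis. *MtSOC1a* (Medtr7g075870) had 8.11, 9.0 and 8.09 CPM in leaves, against 12.9, 17.9 and 12.9 CPM in apices. Every leaf library lay below every apex library, yet the difference was under 2-fold (log2 fold change -0.79 ± 0.18, adjusted p = 0.00335). *MtSOC1b* (Medtr8g033250) was lower in leaves, with 0.147, 0.754 and 0.402 CPM in leaves, against 3.11, 1.42 and 3.20 CPM in apices (log2 fold change -2.59 ± 0.58, adjusted p = 0.0033; -3.25 without leaf replicate 2), and *MtSOC1c* (Medtr8g033220), its neighbour, overlapped between tissues (log2 fold change -0.37 ± 0.36, adjusted p = 0.389). The SVP relatives went apart. *MtSVPc* (Medtr5g066180) had 1.44, 1.29 and 0.804 CPM in leaves, against 17, 17.9 and 20.8 CPM in apices (log2 fold change -3.97 ± 0.24, adjusted p = 8.03e-07), and Medtr5g032150, listed as an SVP homolog, also fell (log2 fold change -1.67 ± 0.25, adjusted p = 0.000258). *MtSVP/AGL24* (Medtr4g093970) was higher in leaves, with 17, 19.2 and 20.01 CPM in leaves, against 5.34, 10.3 and 6.49 CPM in apices (log2 fold change 1.34 ± 0.24, adjusted p = 0.000893), and *MtSVP1* (Medtr5g032520) showed no overlap, with 47.5, 38.2 and 40.3 CPM in leaves, against 20.3, 22.7 and 26.6 CPM in apices, but stayed under 2-fold (log2 fold change 0.86 ± 0.15, adjusted p = 0.000641) unless apex replicate 3 was left out (1.02, adjusted p = 0.000713).

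Other MADS-box genes differed less. *MtAGL17* (Medtr1g101970) was lower in leaves (log2 fold change -1.37 ± 0.49, adjusted p = 0.0329), a call lost without leaf replicate 1 (adjusted p = 0.0533), leaf replicate 2 (0.0878) or apex replicate 3 (0.181). *MtAGL19* (Medtr4g102530) was not called (log2 fold change -0.74, adjusted p = 0.134), except without leaf replicate 2 (-1.13, 0.0372). Of 2 loci listed as homologs of TEM2, a repressor of *FT* in Arabidopsis, Medtr5g053920 was higher in leaves, with 37.5, 36.2 and 58.9 CPM in leaves, against 8.13, 13.8 and 14.4 CPM in apices (log2 fold change 1.87 ± 0.27, adjusted p = 0.000341), and Medtr1g093600 lower, with 8.37, 16.3 and 26.6 CPM in leaves, against 30.6, 68.3 and 43.5 CPM in apices (log2 fold change -1.48 ± 0.46, adjusted p = 0.0244). Both sets of libraries separated without overlap, but the second call was lost without leaf replicate 2 (adjusted p = 0.0954) or apex replicate 2 (0.0894). The homologs of APETALA2, Medtr5g016810 (-0.22) and Medtr4g094868 (-0.43), were not called (adjusted p = 0.173 and 0.0635).

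SPL factors promote flowering with plant age in Arabidopsis, where most are held down by the microRNA miR156 in young tissue. Of 10 SPL genes, 7 were lower in leaves and 1 higher. *MtSPL15a* (Medtr7g092930) had 0, 0.443 and 0.313 CPM in leaves, against 14.8, 10.8 and 16.9 CPM in apices (log2 fold change -5.87 ± 0.61, adjusted p = 5.28e-05; -5.22 without leaf replicate 1 and -6.60 without leaf replicate 2). *MtSPL15b* (Medtr1g053715) had 0 counts in all 3 leaf libraries, against 50, 26 and 28 counts in apices, at least 16.91-fold lower (adjusted p = 0.000791). In both SPL15 genes the apex libraries lay well clear of the leaf libraries. *MtSPL13a* (Medtr8g096780) (1.22, 1.55 and 1.52 CPM in leaves, against 17, 21.4 and 16.4 CPM in apices) and *MtSPL2* (Medtr3g085180) (0.996, 2.04 and 0.715 CPM in leaves, against 19.9, 17 and 22.1 CPM in apices) had log2 fold changes of -3.68 ± 0.21 and -3.98 ± 0.34. *MtSPL4* (Medtr2g014200) (-4.17; -6.21 without leaf replicate 3, the only leaf library above 1 CPM), *MtSPL3* (Medtr4g088555) (-2.89) and *MtSPL9* (Medtr7g444860) (-2.62) followed, without overlap between tissues. *MtSPL5b* (Medtr8g463140) ran the other way, with 19.4, 9.36 and 10.9 CPM in leaves, against 2.47, 1.80 and 2.87 CPM in apices (log2 fold change 2.48 ± 0.32, adjusted p = 0.000118). *MtSPL7* (Medtr2g020620), whose Arabidopsis counterpart senses copper, and *MtSPL13c* (Medtr7g028740) were not called, at 0.21 ± 0.12 and -0.08 ± 0.14.

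**Figure D3:**
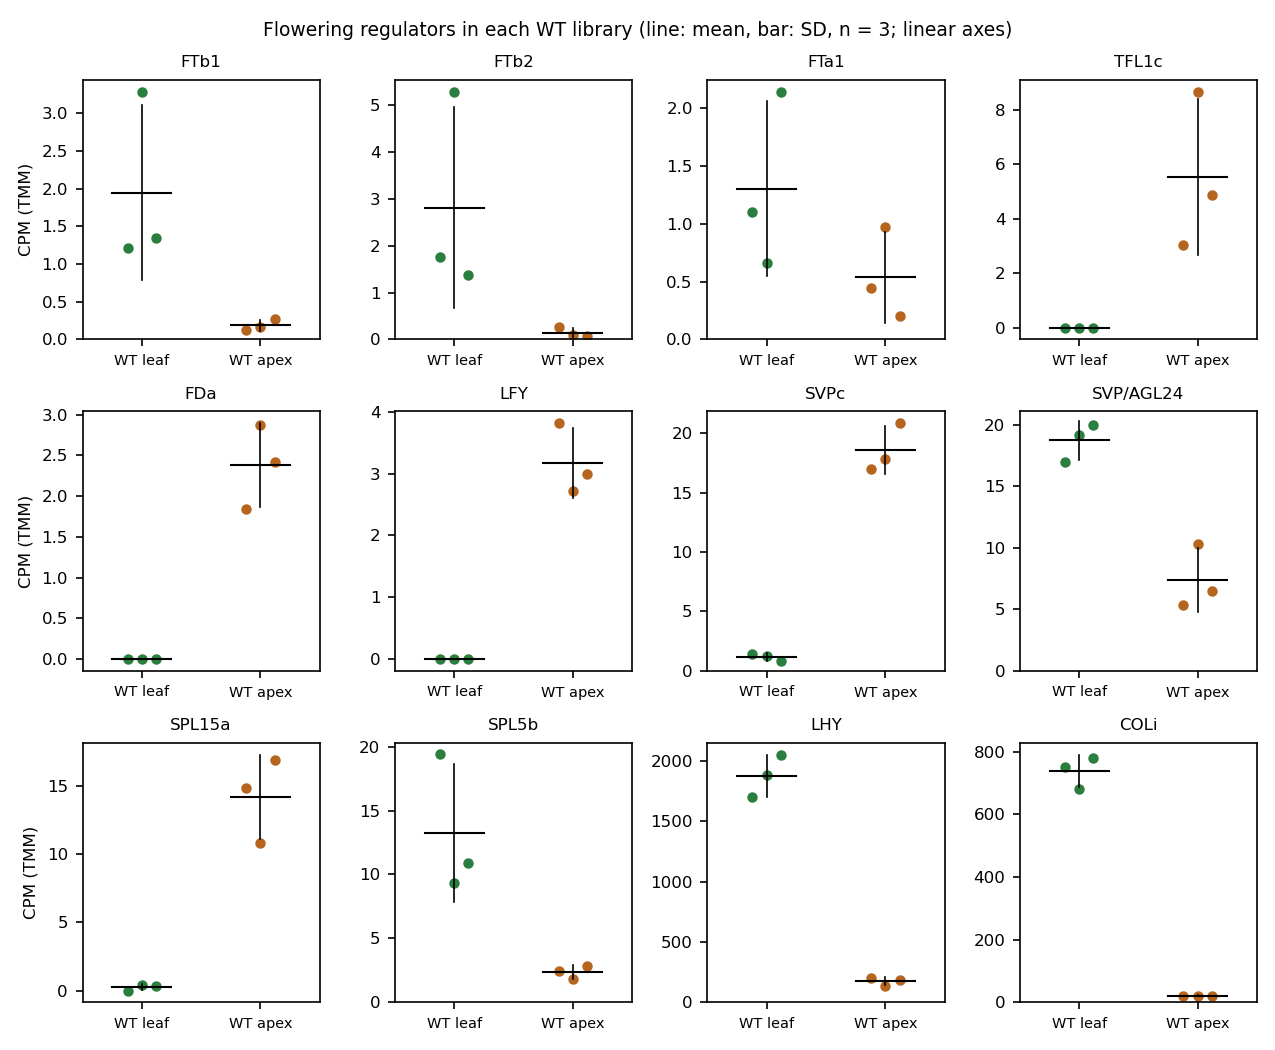
CPM in each WT library (leaf left, apex right; linear axes, with the mean as a line and the SD as a bar, n = 3) of 12 regulators: *MtFTb1*, *MtFTb2*, *MtFTa1*, *MtTFL1c*, *MtFDa*, *MtLFY*, *MtSVPc*, *MtSVP/AGL24*, *MtSPL15a*, *MtSPL5b*, *MtLHY* and *MtCOLi*. *MtFTa1* is the only gene of the 12 whose leaf and apex libraries overlap (75.7% of all tested loci do not), and *MtTFL1c*, *MtFDa* and *MtLFY* are at 0 in leaves.

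Photoperiod and clock genes were read at a single hour, 4 h after dawn, so the values hold for that time only. Of 14 tested, 8 were higher in leaves. *MtLHY* (Medtr7g118330), a morning factor of the clock, had 1699, 1884 and 2052 CPM in leaves, against 203, 139 and 185 CPM in apices (log2 fold change 3.42 ± 0.19, adjusted p = 5.25e-07). *MtCOLi* (Medtr8g104190), a member of the CONSTANS-like (COL) family of B-box proteins, had 752, 681 and 781 CPM in leaves, against 22.0, 19.2 and 20.9 CPM in apices, the largest difference of the category (log2 fold change 5.16 ± 0.15, adjusted p = 6.49e-08). Within each tissue the libraries of both genes agreed closely, and the tissues were far apart. *MtCOLa* (Medtr7g018170) (139, 148 and 181 CPM in leaves, against 19.8, 24.0 and 17.2 CPM in apices) and *MtCOLd* (Medtr4g128930) (301, 269 and 246 CPM in leaves, against 89.5, 86.1 and 81.3 CPM in apices) were higher in leaves as well (2.94 ± 0.17 and 1.67 ± 0.13), *MtCOLf* (Medtr5g069480) was lower (log2 fold change -1.28 ± 0.31, adjusted p = 0.00513), and *MtCOLk* (Medtr1g110870) stayed under 2-fold (0.81 ± 0.22). Of genes named for ELF3 and ELF4, which form the evening complex of the Arabidopsis clock, *MtELF4* Medtr3g070490 (3.98 ± 0.48) and Medtr8g020200 (1.96 ± 0.25) were higher in leaves and Medtr2g041310 was not called (-0.20 ± 0.16). *MtELF3* (Medtr8g015480) just passed the threshold (1.04 ± 0.24, adjusted p = 0.00349), but not without leaf replicate 2 (0.88) or 3 (0.98), and turned to -0.02 with library totals alone. *MtFKF1* (Medtr8g105590), named for a blue-light receptor of the evening, was lower in leaves, with 1.47, 0.975 and 0.894 CPM in leaves, against 4.29, 5.80 and 5.24 CPM in apices (log2 fold change -2.18 ± 0.30, adjusted p = 0.000165). *MtTOC* (Medtr4g108880), an evening clock gene, was not called (-0.76 ± 0.35, adjusted p = 0.0851), except without leaf replicate 1 (-1.32, 0.00116). *MtFPF* (Medtr2g436880), named for a flowering promoting factor, was higher in leaves (2.77, 1.95 and 3.62 CPM in leaves, against 0.221, 0.0206 and 0.156 CPM in apices; log2 fold change 4.34 ± 0.63, or 4.98 without apex replicate 1). The phytochrome gene *MtPHYA* (Medtr1g085160) had 72.2, 73.6 and 71.3 CPM in leaves, against 64.0, 77.4 and 63.5 CPM in apices and overlapped (0.08 ± 0.12).

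Genes of the hormone gibberellin, which promotes flowering in Arabidopsis, did not share a direction. Among GA20OX genes, whose enzymes act late in its synthesis, Medtr1g102070 was lower in leaves, with 1.55, 1.46 and 0.983 CPM in leaves, against 8.46, 12.7 and 6.13 CPM in apices (log2 fold change -2.76 ± 0.33, adjusted p = 7e-05), and Medtr6g464620 higher, with 3.47, 8.2 and 4.07 CPM in leaves, against 1.05, 1.42 and 0.778 CPM in apices (log2 fold change 2.27 ± 0.41, adjusted p = 0.000894). The 2 loci thus separated the tissues in opposite directions, without overlap, and Medtr3g096500 was not called (0.51 ± 0.57). *MtGA2OX* Medtr4g074130, of the family that inactivates gibberellin, had 0 counts in all 3 leaf libraries, against 97, 70 and 68 counts in apices (at least 38.21-fold lower in leaves, adjusted p = 0.000111). *MtGA2OX* Medtr2g102570 was lower too (log2 fold change -1.38 ± 0.47, adjusted p = 0.0279), but not called without leaf replicate 1 (-0.98), leaf replicate 3 (adjusted p = 0.0801) or apex replicate 1 (0.108). Of the receptor genes, *MtGID1* Medtr8g035520 was higher in leaves, with 2.62, 6.78 and 2.06 CPM in leaves, against 0.921, 0.454 and 0.689 CPM in apices (log2 fold change 2.46 ± 0.52, adjusted p = 0.00238; 1.76 without leaf replicate 2), and the other 3 were not called, except Medtr7g093950 (-0.72, adjusted p = 0.166) without leaf replicate 1 (-1.20, 0.0398).

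The loci listed as GRP among the gibberellin genes had 5 of 8 members lower and 2 higher in leaves. Medtr6g007897 had 0, 0.177 and 0 CPM in leaves, against 59.9, 44.7 and 63.2 CPM in apices (log2 fold change -9.89 ± 0.49, adjusted p = 5.86e-07). Only leaf replicate 2 held reads of it, so that without that library the count in leaves was 0, and without leaf replicate 1 the log2 fold change was -9.24. Medtr4g106860 had 1.40, 2.75 and 1.43 CPM in leaves, against 40.4, 79.6 and 55.3 CPM in apices (log2 fold change -4.98 ± 0.36, adjusted p = 6.58e-06) and Medtr7g010580 9.40, 15.7 and 10.1 CPM in leaves, against 71.8, 54.5 and 74.2 CPM in apices (log2 fold change -2.51 ± 0.22, adjusted p = 1.04e-05). Medtr6g012360 (-3.93; -5.14 without leaf replicate 2) and Medtr1g018640 (-3.40; -4.05 without leaf replicate 2) were lower as well. Medtr3g037750 was higher in leaves, with 7.45, 15.2 and 8.49 CPM in leaves, against 0.958, 1.20 and 0.533 CPM in apices (log2 fold change 3.52 ± 0.39, adjusted p = 4.54e-05), as was Medtr3g113890 (1.44 ± 0.35). None of these 7 loci, all of them called, overlapped between tissues, and Medtr8g075920 did (0.22 ± 0.34). Of all tested loci, 75.7% did not overlap.

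Trehalose-6-phosphate, made by TPS and removed by TPP enzymes, reports sugar supply and promotes *FT* expression in Arabidopsis leaves. *MtTPP* (Medtr4g036090) had 143, 143 and 161 CPM in leaves, against 11.7, 12.4 and 13.7 CPM in apices (log2 fold change 3.56 ± 0.13, adjusted p = 1.04e-07). The library values clustered tightly in each tissue. *MtTPS1* (Medtr2g073260), of the catalytically active type, was higher in leaves (log2 fold change 1.23 ± 0.14, adjusted p = 5e-05), and *MtTPS* Medtr4g129270 lower, with 2.73, 3.02 and 1.70 CPM in leaves, against 19.2, 46.8 and 21.0 CPM in apices (log2 fold change -3.54 ± 0.42, adjusted p = 0.000132). *MtTPS* Medtr8g063790 was lower by a narrow margin (-1.18 ± 0.28, adjusted p = 0.00531), short of 2-fold without leaf replicate 3 (-0.98) or apex replicate 2 (-0.86), either of which left 1 of 7 TPS genes, and 1 of 8 carbohydrate genes, lower. The other 4 TPS loci lay between -0.61 and 0.68.

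Vernalization genes were lower in leaves or not called. *MtVRN1* (Medtr4g068320), named for an Arabidopsis factor that keeps the floral repressor FLC silent after cold, had 2.10, 2.35 and 2.68 CPM in leaves, against 39.5, 39.1 and 41.3 CPM in apices (log2 fold change -4.07 ± 0.15, adjusted p = 1.04e-07). Libraries of a tissue were nearly equal. Of 6 FRIGIDA-like (FRL) loci, 4 were lower in leaves: Medtr2g091245 (0 counts in all 3 leaf libraries, against 44, 42 and 45 counts in apices; at least 21.3-fold), Medtr2g091110 (-3.17), Medtr2g091290 (-2.85) and Medtr2g091370 (-2.25). These 4, with Medtr2g091015, carry neighbouring locus numbers. Medtr2g091015 was not called (0.95, adjusted p = 0.0442) but passed 2-fold without leaf replicate 1 (1.25, 0.0072), and the same library decided *MtSWN* (Medtr1g086980), a Polycomb gene, at 84.3, 98.9 and 100.8 CPM in leaves, against 48.3, 52.0 and 45.9 CPM in apices: its log2 fold change was 0.96 ± 0.12 with all libraries, 1.04 without leaf replicate 1 and 1.03 without apex replicate 2. Vernalization genes higher in leaves thus numbered 0 with all libraries, 2 without leaf replicate 1 and 1 without apex replicate 2. FRL Medtr2g010420 lay at -0.84 (-1.0 without leaf replicate 2, when it was called).

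The gene groups that follow are gene ontology terms which the study picked from its apex libraries of the triple mutant and WT, the present WT apices among them, so their directions here are not independent of that choice. Photosynthesis, protein-chromophore linkage, cellular respiration and ATP synthesis coupled proton transport were picked as higher in the triple mutant. The other groups, nitrate assimilation included, were picked as lower in it. A low WT apex level in the former, and a high one in the latter, is in part fixed by the choice. Groups of chloroplast, energy and nitrate metabolism were higher in leaves. All 11 tested genes of protein-chromophore linkage were (median log2 fold change 3.30, against -0.12 for all loci), as were 8 of 10 of cellular respiration (median 2.33), 6 of 7 of ATP synthesis coupled proton transport (2.28) and all 4 of nitrate assimilation (3.54). No gene of these 4 groups was lower in leaves. The photosynthesis gene with the most counts, Medtr6g011870, had 3542, 3712 and 4189 CPM in leaves, against 274, 184 and 301 CPM in apices (log2 fold change 3.92 ± 0.22, adjusted p = 6.11e-07), and took most of the summed level given above. Medtr8g070530 had 573, 652 and 552 CPM in leaves, against 78.6, 70.4 and 69.3 CPM in apices (log2 fold change 3.02 ± 0.14, adjusted p = 2.26e-07). Of the nitrate assimilation genes, Medtr3g073180 had 1374, 904 and 1112 CPM in leaves, against 15.3, 12.2 and 12.0 CPM in apices (log2 fold change 6.42 ± 0.23, adjusted p = 1.01e-07) and Medtr5g059820 4937, 4952 and 4823 CPM in leaves, against 234, 195 and 179 CPM in apices (log2 fold change 4.60 ± 0.18, adjusted p = 1.15e-07). In each the leaf libraries stood more than 10 times above the apex libraries. The others, Medtr4g104730 and Medtr4g104700, were closer, at 2.48 ± 0.31 and 1.24 ± 0.36, and were not called in *Mtsoc1a* (0.55 and 0.17).

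Oxidative and cell wall groups had more lower than higher members in leaves. They were picked as lower in the triple mutant than in WT apices, so the choice in part favours that direction. Of 17 genes of hydrogen peroxide catabolism, 11 were lower and 2 higher (median -2.52), and of 22 of the response to oxidative stress, 12 and 5 (median -1.67; 3 higher without leaf replicate 3). Xyloglucan metabolism had 7 lower and 3 higher of 13 (median -1.62). The peroxide gene Medtr6g043280 had 0 counts in all 3 leaf libraries, against 6931, 4145 and 4222 counts in apices, at least 2487-fold lower in leaves (adjusted p = 3.6e-07), and was among the 3 called loci with no leaf count that had the most apex counts. Medtr2g084020 had 0.553, 1.06 and 1.47 CPM in leaves, against 21.6, 24.9 and 20.7 CPM in apices (log2 fold change -4.46 ± 0.30, adjusted p = 1.67e-06). The 2 peroxide genes higher in leaves were Medtr2g008710 (2.77 ± 0.60; 3.67 without apex replicate 2) and Medtr8g075100 (1.14 ± 0.46), which was at the edge of the threshold and lost without leaf replicate 2 or 3 or apex replicate 1 or 3 (adjusted p = 0.0623 to 0.135). Among xyloglucan genes, Medtr4g128590 had 0 counts in all 3 leaf libraries, against 339, 214 and 282 counts in apices (at least 135.8-fold lower), and Medtr7g084760 3.54, 15.9 and 6.66 CPM in leaves, against 109, 82.9 and 108 CPM in apices (log2 fold change -3.53 ± 0.53, adjusted p = 0.000902). No leaf library reached the apex range, but leaf replicate 2 was the highest leaf library for this gene, for Medtr1g105495 (-2.59) and for Medtr1g063020 (-2.95), which without it were at -4.30, -3.25 and -3.77. Medtr8g064180 (1.92), Medtr6g033055 (1.28) and Medtr6g033085 (1.19; 0.95 without leaf replicate 3) were higher in leaves.

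Transport and response groups had no single direction. Amino acid transport leaned to the leaf (7 higher and 3 lower of 15, median 1.04), led by Medtr6g016275 (244, 189 and 249 CPM in leaves, against 23.9, 22.5 and 22.7 CPM in apices; log2 fold change 3.30 ± 0.15). Metal ion transport had 11 higher and 5 lower of 23 (median 0.22), with Medtr8g446430 at 77.2, 71.7 and 75.4 CPM in leaves, against 2.38, 3.57 and 2.49 CPM in apices (4.73 ± 0.19). Both leading genes separated the tissues, as did the lower members Medtr2g026670 (-2.12 ± 0.15) and Medtr1g111740 (-4.03 ± 0.65; -3.29 without apex replicate 2). The response to abscisic acid had 3 higher and 5 lower of 13 (median 0.05). Its lower members included Medtr2g035320 (8.89, 4.52 and 3.31 CPM in leaves, against 31.1, 58.3 and 43.1 CPM in apices; -2.98 ± 0.40), Medtr2g035190 and Medtr2g035220, which are near each other by number, and Medtr1g111830. For the last 3, apex replicate 2 was the highest library, and without it the log2 fold changes of Medtr2g035220 and Medtr1g111830 were -2.22 and -2.62 in place of -2.88 and -3.38, while Medtr2g035190 was at -4.26 without leaf replicate 1 in place of -3.44. Chitin catabolism had 2 higher and 3 lower of 6 (median -2.10). Medtr8g074335 (103, 24.0 and 47.0 CPM in leaves, against 5.23, 18.7 and 4.98 CPM in apices; 2.60 ± 0.75) was called only with leaf replicate 1 (1.88, adjusted p = 0.0607 without it, and 3.53 without apex replicate 2), leaving 1 higher, while Medtr1g013150 was higher (1.56 ± 0.20) and Medtr8g074350 (-5.01 ± 0.65; -6.27 without leaf replicate 1) lower. Flavonoid biosynthesis had 1 higher (Medtr8g095030, 1.77 ± 0.21) and 2 lower of 7, and the 2 lower ones, Medtr7g016700 and Medtr7g016720, were low in apex replicate 1, at 0.221 and 0.442 CPM, against 1.42 to 5.16 CPM in the other apex libraries. The log2 fold change of Medtr7g016700 was -4.62 (-5.37 without leaf replicate 2 and -3.89 without apex replicate 2). That of Medtr7g016720 was -2.65, not called without apex replicate 2 (-1.30, adjusted p = 0.115) or any single leaf library (adjusted p = 0.0635 to 0.096), each of which left 1 gene lower, and 4 were lower without apex replicate 1 and 2 higher without apex replicate 2.

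**Figure D4:**
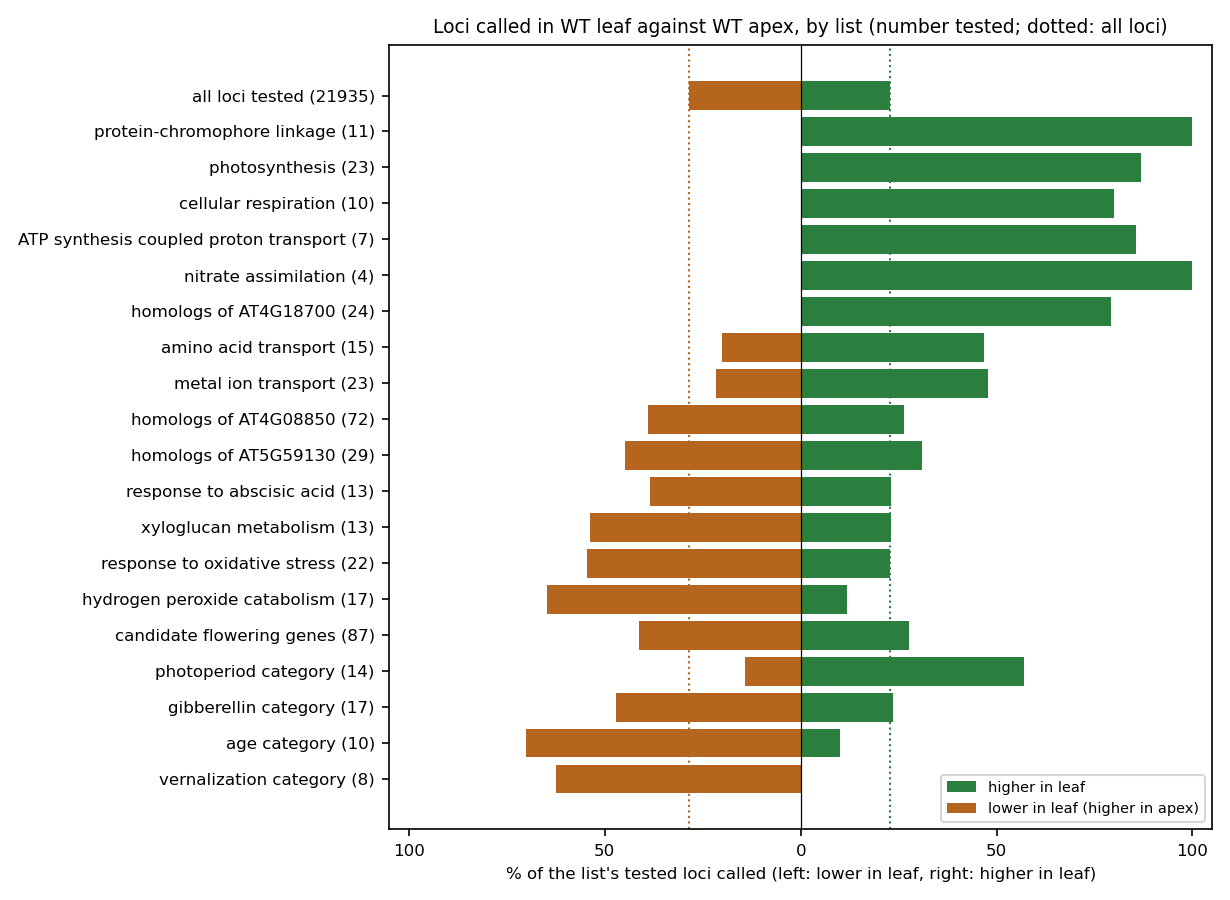
Percent of the tested members of each gene list called higher (right) or lower (left) in WT leaf than in WT apex; dotted lines mark the 22.9% higher and 28.5% lower of all 21935 tested loci. Protein-chromophore linkage and nitrate assimilation reach 100% higher, and age genes 70% lower.

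Homologs of Arabidopsis genes bound by SOC1, which the study chose by sequence similarity and kept where expressed, numbered 220, of which 208 were tested. In leaves 73 were higher and 66 lower (median 0.10). Of 24 homologs of the kinase gene *CIPK12*, 19 were higher in leaves and none lower (median 2.13), and with library totals alone these counts were 13 and 2. Medtr4g128820 had 89.3, 81.4 and 99.1 CPM in leaves, against 1.99, 1.65 and 1.73 CPM in apices (log2 fold change 5.65 ± 0.16, adjusted p = 6.17e-08), and Medtr1g013700 103, 87.4 and 114 CPM in leaves, against 4.83, 5.16 and 5.20 CPM in apices (log2 fold change 4.32 ± 0.15, adjusted p = 8.91e-08). All libraries of each tissue lay within a narrow range in both. Leucine-rich repeat kinase homologs of AT4G08850 had 19 higher and 28 lower of 72 (median -0.61), and subtilase homologs of AT5G59130 9 and 13 of 29 (median -0.39). Among the kinases, Medtr5g021670 had 1.36, 1.91 and 1.61 CPM in leaves, against 41.5, 33.0 and 33.3 CPM in apices (log2 fold change -4.47 ± 0.19, adjusted p = 1.63e-07). The subtilase homologs held wide differences in both directions. Medtr5g085690 had 0, 1 and 0 counts in leaves, against 2654, 2785 and 1928 counts in apices, a ratio of 3593 in favour of the apex (95% interval 644.8 to 142000, counting error only), and Medtr1g078110 had 128, 97.8 and 95.8 CPM in leaves, against 1.90, 2.02 and 2.16 CPM in apices (log2 fold change 5.73 ± 0.18, adjusted p = 6.81e-08). Leaf replicate 2 held the only leaf read of Medtr5g085690, and without it the count in leaves was 0. The homolog of the fatty acid desaturase gene *FAD5*, Medtr4g010150, had 72.7, 70.4 and 73.2 CPM in leaves, against 0.534, 3.34 and 0.555 CPM in apices (log2 fold change 5.61 ± 0.73, adjusted p = 5e-04; 7.06 without apex replicate 2, the highest apex library), and the homolog of AT2G30600, Medtr5g066730, had 36.3, 55.1 and 73.5 CPM in leaves, against 366, 589 and 318 CPM in apices (log2 fold change -2.95 ± 0.33, adjusted p = 8.17e-05).

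Loci without an annotation in the sources used here marked the extremes. By the authors' TPM, which is per length and a single value per tissue, Medtr7g007120 stood highest among loci higher in leaves, with 35337 TPM in leaves and 1035 TPM in apices, and its libraries were at 23825, 27125 and 23195 CPM in leaves, against 428, 257 and 398 CPM in apices (log2 fold change 6.10 ± 0.27, adjusted p = 1.71e-07). Medtr7g007200 and Medtr7g007220, its neighbours by number, were also among the 5 highest, with log2 fold changes of 6.12 and 6.50. Among loci lower in leaves, Medtr3g092600 had the highest TPM in apices (629 TPM in leaves and 5040.0 TPM in apices; log2 fold change -1.93 ± 0.13). The leaf leaders were farther from the apex in level than the apex leaders were from the leaf: the 5 highest in leaves differed by log2 3.85 to 6.50, and the 5 highest in apices by -1.78 to -2.59. Of loci called higher with no apex count, Medtr7g490330 had 1019, 1383 and 2209 counts in leaves, against 0 counts in all 3 apex libraries (at least 3151-fold) and Medtr5g072540 1379, 1471 and 974 counts in leaves, against 0 counts in all 3 apex libraries (at least 2613-fold). By smallest p the leaf was led by Medtr5g090630 (98.9, 123 and 114 CPM in leaves, against 0.258, 0.310 and 0.222 CPM in apices; 8.71 ± 0.20), and the apex by Medtr8g075260 (0.332, 0.355 and 0.357 CPM in leaves, against 72.7, 78.9 and 80.7 CPM in apices; -7.79 ± 0.17). In each case replicates differed little beside the gap between tissues. Medtr5g090580, Medtr5g090700 and Medtr5g091190 were also among the 10 of smallest p in leaves, and Medtr4g063630 (-9.99 ± 0.27) had the largest fold change of the 10 lower in leaves.

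The *Mtsoc1a* libraries gave nearly the same contrast. The insertion was visible in the target gene, *MtSOC1a* having 10, 4 and 0 counts in *Mtsoc1a* leaves, against 220, 203 and 181 in WT leaves, and 47, 22 and 29 in *Mtsoc1a* apices, against 698, 865 and 582 in WT apices. Of 21783 loci tested in *Mtsoc1a*, 4852 (22.3%) were higher and 5578 (25.6%) lower in leaves, 47.9% together. Of the 5033 loci higher in WT leaves, 4287 were also higher in *Mtsoc1a* leaves (85.2% of the WT list and 88.4% of the *Mtsoc1a* list) and 3 were lower. Of the 6243 lower in WT leaves, 4995 were also lower (80% and 89.5%) and 3 were higher. The sign was the same for 99.1% of WT-called loci that could be tested in both. The genotypes share no library. The difference between the 2 contrasts was called for 14 of 23024 loci (0.0608%; 8, or 0.0347%, with a higher and 6, or 0.0261%, with a lower leaf to apex ratio in *Mtsoc1a*), with 2027 loci at an unadjusted p under 0.05, and DESeq2 called 218. Of 95 named flowering genes in that test none was called by edgeR (16 at an unadjusted p under 0.05) and 4 by DESeq2, an FRL locus, *MtSVP/AGL24*, *MtFULc* and *MtAP1*. The count called by edgeR was 1 to 39 when single libraries were left out, 1 without *Mtsoc1a* apex replicate 2 and 39, *MtAP1* among them, without WT apex replicate 2. *MtAP1* had 54, 15 and 61 counts in *Mtsoc1a* leaves, against 0 counts in all 3 *Mtsoc1a* apex libraries, and 78, 64 and 90 counts in WT leaves, against 133, 17 and 140 in WT apices.

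**Figure D5:**
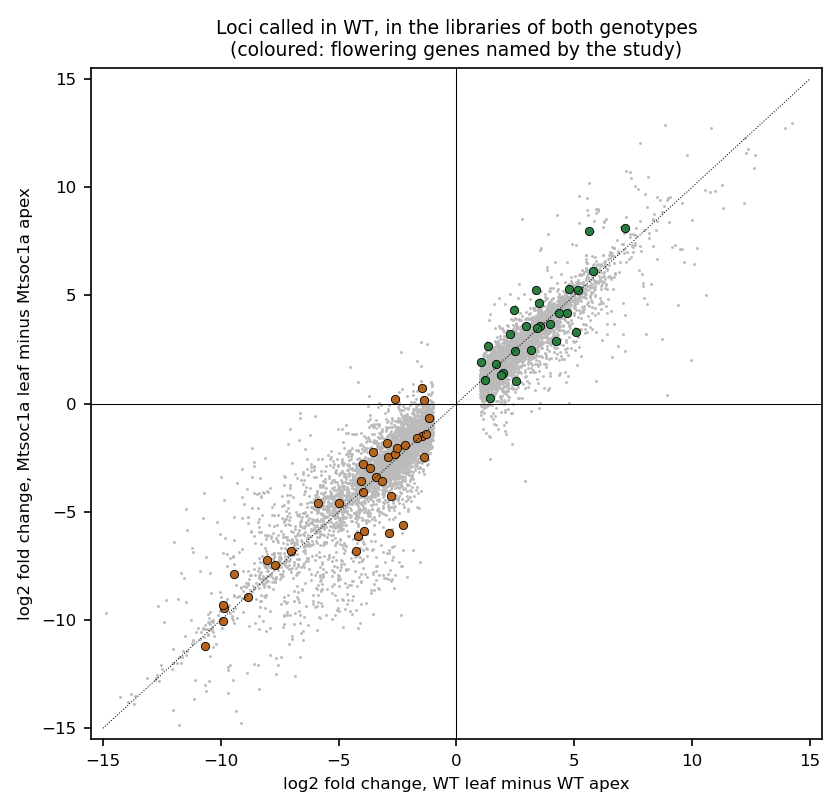
Log2 fold change, leaf over apex, in *Mtsoc1a* (vertical axis) against WT (horizontal axis) for the loci called in WT; each point is a locus. Points follow the diagonal, and 99.1% have the same sign in both genotypes.

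Single transcripts gave the same picture. Of 24796 transcripts tested, 5391 (21.7%) were higher and 6188 (25%) lower in leaves. Of 2380 loci with more than 1 tested transcript, 20 had transcripts called in opposite directions (28 to 40 when single libraries were left out), and at 8 of these the locus as a whole was not called. Medtr5g006520 is an example. Its first transcript had 873, 608 and 622 counts in leaves, against 190, 187 and 131 in apices (log2 fold change 3.09, adjusted p = 1.01e-05), and its second 169, 92 and 85 counts in leaves, against 3641, 3299 and 2331 in apices (-3.71, adjusted p = 1.73e-05). Each transcript separated the tissues without overlap, the first towards the leaf and the second towards the apex, and the locus was at -0.96. At Medtr2g073650, not a single read was given to the second transcript in apices, with 114, 160 and 136 counts in leaves, while the first had 203, 107 and 98 counts in leaves, against 1806, 2160 and 1603 in apices. Such values rest on how Salmon divided reads that fit both transcripts.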

How the data were processed

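RNA was measured by strand-specific, polyA-selected paired-end sequencing of 150 bp reads. After trimming (stated for the apex libraries), the authors quantified reads against the Mt4.0v2 transcript set with Salmon 0.8.2 and deposited estimated counts (expected counts) per transcript and library, together with TPM per group of libraries. The authors' TPM is used here only to rank levels, as a single value per tissue.

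Estimated counts were summed to 50021 loci and then rounded, and those of transcripts were rounded singly. Loci passing filterByExpr (minimum count 10) were tested with edgeR 4.0.16 (TMM, robust quasi-likelihood F-test, two-sided, Benjamini-Hochberg adjustment over all tested loci, R 4.3.3), on the 6 WT libraries without a block. A locus was called at an adjusted p of at most 0.05 and a fold of at least 2. The same fit was made for transcripts and for *Mtsoc1a*, and the difference of the contrasts was tested over 12 libraries. Alternatives were other scalings, DESeq2 1.42.0, no filter, other fold rules, a replicate block and leaving out each library. Scaling to library totals and to *MtPP2A* was added after seeing the data. Library totals were 31134743 to 38896407 counts, and 95% intervals of single ratios cover counting error only.

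Gene names and homologs come from the study's tables, and no locus number matched the reference table, so no sequence is shown. Named are the study's flowering genes, list members of smallest p and those called against the majority, and loci leading by p, TPM or counts. Members, lists and tests were chosen with earlier results of these data known.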

Additional observations from a re-analysis of the deposited data

Results flagged for a closer look

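At 14 loci the leaf to apex contrast differed between *Mtsoc1a* and WT by the test of the difference itself (edgeR, adjusted p = 0.011 to 0.0487). None has an annotation in the sources used here. Differences are log2 fold changes, *Mtsoc1a* minus WT.

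At 8 of them the leaf to apex ratio was higher in *Mtsoc1a*. Medtr1g015650 (difference 3.82) had 248, 327 and 484 counts in *Mtsoc1a* leaves and 1430, 1487 and 1882 in *Mtsoc1a* apices, against 43, 28 and 29 in WT leaves and 1688, 3360 and 1534 in WT apices. Medtr7g102450 (3.29) had 11, 6 and 13 counts in *Mtsoc1a* apices, against 72, 56 and 82 in WT apices. Medtr2g013140 (2.98) had 731, 768 and 1447 counts in *Mtsoc1a* leaves, against 128, 126 and 142 in WT leaves. The other 5 were Medtr2g022460 (2.38), Medtr8g100065 (1.97), Medtr4g064967 (1.62), Medtr1g090693 (1.39) and Medtr2g019600 (1.29).

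At 6 the ratio was lower in *Mtsoc1a*. Medtr5g071010 (-5.04) had 1, 0 and 0 counts in *Mtsoc1a* leaves, against 21, 11 and 12 in WT leaves. Medtr6g034920 (-3.69) had 2161, 3866 and 5894 counts in *Mtsoc1a* apices, against 325, 317 and 207 in WT apices. Medtr6g028090 (-2.22) had 264, 224 and 300 counts in *Mtsoc1a* apices, against 88, 56 and 70 in WT apices. The other 3 were Medtr3g479620 (-1.95), Medtr1g012520 (-1.66) and Medtr4g089055 (-1.30).

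*MtFULc* ran in opposite directions. It had 4, 5 and 10 counts in *Mtsoc1a* leaves and 0 counts in all 3 *Mtsoc1a* apex libraries, whereas WT leaves had 3, 5 and 0 counts and WT apices 47, 21 and 51. The fitted difference of 9.12 depends on the prior count and did not pass the test across all loci (adjusted p = 0.121).

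Dixon's test for a single outlying sample was not applied to groups of 3 libraries.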

How the results depend on the processing

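The direction of the named loci that were called held under the alternatives run, except for *MtELF3* (-0.02) and Medtr5g010830 (-0.05) with library totals alone. Calls were lost at 25 named loci with library totals alone, at 25 with glmTreat and at 9 with scaling to *MtPP2A*. Library totals alone left *MtSVP/AGL24* at 0.29 and *MtTPS1* at 0.18, both uncalled. Calls were gained at 15 named loci with library totals alone and at 8 with scaling to *MtPP2A*. Among the latter were *MtFTa1* (1.71), *MtFULb* (1.07), *MtSVP1* (1.30) and *MtSWN* (1.40). The balance of calls did not hold: 2669 loci were higher and 11797 lower with library totals alone (18.5% of called loci higher, against 44.6%), 4548 and 6849 with upper-quartile scaling, and 6737 and 4794 (58.4% higher) with scaling to *MtPP2A*. DESeq2 called 5125 and 6150, and leaving out single libraries left both counts within 1.5 times those with all libraries. Loci with opposite transcripts numbered 35 without the fold threshold, 12 with glmTreat and 28 to 40 with a library left out. Loci whose contrast differed between genotypes numbered 218 with DESeq2, 8 with the replicate block and 1 to 39 with a library left out, against 14. The cause was not tested.

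Calls near the threshold were also lost with the replicate block (*MtFULc*, *MtAGL17*, *MtCALd*, GA2OX Medtr2g102570, Medtr8g075100, Medtr7g016720, Medtr6g009070 and Medtr5g010830) and without the filter (*MtCALd*, Medtr1g093600 and Medtr8g074335). Upper-quartile scaling lost *MtELF3*, Medtr8g075100, Medtr5g010830 and Medtr1g113850, and DESeq2 lost *MtCALd*. A single fit of 12 libraries lost 4 calls, *MtAGL17*, *MtCALd* and Medtr5g010830 among them. Using the most abundant transcript lost *MtAGL17*, *MtCALd*, GA2OX Medtr2g102570, Medtr8g075100 and Medtr3g104920, and put Medtr7g007120 at 6.99 in place of 6.10.

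Same-numbered leaf and apex libraries did not deviate together (correlations -0.101, -0.226 and 0.00536, against -0.128 to 0.208 for differently numbered ones). With 3 libraries a tissue this cannot show whether the pools came from the same plants. The main fit did not use the numbers as pairs. A replicate block gave 4881 higher and 6011 lower loci.

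Genes not called crossed 0 with upper-quartile scaling (*MtPHYA* -0.07), with the replicate block (*MtSEP1/2a* 0.13) and with the most abundant transcript (*MtPHYA* -0.41). With single libraries left out, *MtSEP1/2a* ranged over -0.82 to 0.25, *MtSPL13c* over -0.12 to 0.05, TPS Medtr1g032730 over -0.26 to 0.03, GID1c Medtr1g089310 over -0.42 to 0.06 and GRP Medtr8g075920 over -0.01 to 0.43. With library totals alone these were *MtFULa* -0.13, *MtFULb* -0.45, *MtAP1* -0.34, *MtSWN* -0.10, *MtAGL80* -0.21, *MtAGL65* -0.33, *MtSVP1* -0.20, *MtSPL7* -0.84, TPS Medtr1g109620 -0.38, GA20OX Medtr3g096500 -0.54, GID1 Medtr6g464120 -0.90, GRP Medtr8g075920 -0.84, *MtPHYA* -0.98, *MtCOLk* -0.25 and FRL Medtr2g091015 -0.11. With scaling to *MtPP2A* they were *MtSOC1c* 0.08, *MtSEP1/2a* 0.20, *MtSPL13c* 0.37, TPS Medtr1g032730 0.24, GID1c Medtr1g089310 0.19, ELF4 Medtr2g041310 0.25, Medtr5g016810 0.23 and Medtr4g094868 0.03.

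Calls of genes with few counts, such as *MtCALd* and *MtFULc*, were lost without single libraries, and genes at 0 in a tissue have a bound only. Differences under 2-fold were left uncalled by the fold rule even where libraries did not overlap, as for *MtSOC1a*.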

Other observations

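Smaller families of the homologs of SOC1-bound genes had members in both directions. Of 18 homologs of AT1G28010 (ABCB14, an ABC transporter), 5 were higher and 3 lower in leaves (median log2 fold change 0.47, against -0.12 for all loci; 3 higher without leaf replicate 1 or 3). Medtr6g009200 had 150.0, 134 and 124 CPM in leaves, against 32.1, 49.1 and 16.4 CPM in apices (2.06 ± 0.36), and Medtr6g008800, Medtr6g009030 and Medtr6g009070, near it by number, were higher as well, the last not without leaf replicate 1 or 3, and Medtr6g009030 at 2.27 without apex replicate 2 in place of 1.64. Medtr6g011680, at a greater distance, had 78.0, 74.3 and 65.3 CPM in leaves, against 249.6, 215 and 215 CPM in apices (-1.64 ± 0.13).

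Of 9 homologs of AT1G58340 (ZF14), 6 were lower and 2 higher in leaves (median -1.30), with 3 lower without apex replicate 2 and 1 higher without leaf replicate 1 or 3 or apex replicate 1 or 2. Medtr6g043810 had 0.147, 0.488 and 0.223 CPM in leaves, against 5.38, 6.81 and 4.87 CPM in apices (-4.32 ± 0.42; -4.93 without leaf replicate 2 and -10.7 with the most abundant transcript in place of the locus). Of 6 homologs of AT1G78610 (MSL6, a mechanosensitive channel relative), 3 were lower and 2 higher. Of 8 homologs of AT3G48350 (CEP3, a cysteine protease), 3 were lower and 1 higher (1 lower without leaf replicate 3 and 2 without any other single library), Medtr3g075390 being at 0.406, 2.04 and 1.25 CPM in leaves, against 16.8, 15.0 and 15.1 CPM in apices (-3.69 ± 0.44). Of 7 homologs of AT5G51460 (TPPA, a trehalose-6-phosphate phosphatase), 3 were higher, *MtTPP* among them, and 2 lower.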
